A study of Mus musculus with 12 samples.

Results

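The genes described here are 37 mouse genes of glucose uptake, glycolysis, lactate export and the response to low oxygen. They were taken by symbol from a fixed list, which was chosen with earlier results of these data known. All 37 are among the 55376 genes of the deposited counts. Of them, 36 had enough counts to be among the 11994 genes tested. Ldhb, which encodes the heart-type lactate dehydrogenase subunit, was the exception, with between 0.196 and 1.25 CPM (counts scaled to the library's total) in the 12 libraries.

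The libraries came from c-Kit+/Sca-1+/Lin- mouse bone marrow progenitors in 4 groups of 3. The medium of all cells was RPMI with SCF (100 ng/ml), IL-3 (20 ng/ml) and IL-6 (20 ng/ml), and the cells were put through retroviral transduction and geneticin selection. The shNizp1#2 and shNizp1#1 groups expressed NUP98-NSD1, a leukaemia fusion of a nucleoporin and a histone methyltransferase, together with 1 of 2 constitutive pLKO.1-puro shRNAs directed at Nizp1, an NSD1-binding zinc finger protein. The third group expressed NUP98-NSD1 with a control shRNA, and the fourth carried the empty MSCV vector with a control shRNA. Each title ends in a replicate number, 1, 2 or 3, so that each number holds 1 library of every group. Animals, pools and clones are not described, and the progenitors are defined by surface markers before culture.

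Glycolysis turns glucose into pyruvate. Cells that make lactate from pyruvate regenerate the NAD that glycolysis uses and send the lactate out through monocarboxylate transporters. In low oxygen the transcription factor HIF-1, whose regulated subunit is encoded by Hif1a, switches on genes for most of these steps. When oxygen is plentiful, prolyl hydroxylases encoded by Egln1, Egln2 and Egln3 mark that subunit for degradation, and Egln3 and Egln1 are themselves HIF targets. Haematopoietic stem cells in the marrow are known for relying on glycolysis.

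Nizp1 is listed as Zkscan17 (chr11:59485520-59506644, minus strand, mm10). It averaged 24.5 ± 6.08 CPM in shNizp1#2 libraries and 30.5 ± 4.37 CPM in shNizp1#1 libraries, against 57.9 ± 7.42 CPM in NUP98-NSD1 libraries with the control shRNA and 63.1 ± 5.69 CPM in empty-vector libraries (SD, n = 3 each). Against the control-shRNA libraries its log2 fold change was -1.25 with shNizp1#2 (edgeR adjusted p = 2.90e-04 with the replicate number as a block) and -0.93 with shNizp1#1 (edgeR adjusted p = 0.00198). Libraries held between 3586538 and 6842589 counts, and 3 counts were worth 0.417 to 0.837 CPM. The labels do not say that equal numbers share an experiment, but all 18 pairs of libraries with the same number deviated together from their group means (r between 0.22 and 0.88). Tests are therefore given without and with the replicate number as a block. For Zkscan17 only the fit with the block is given above. Without it, 0 tested genes were lower at an adjusted p under 0.05 with shNizp1#1, so Zkscan17 did not pass there. With shNizp1#2 1 tested gene was lower in that fit, and the Zkscan17 result is not given here. The 9 stem and progenitor markers, none of them at 0 in all libraries, summed to between 3944 and 4953 CPM, and 10 mast cell markers to between 39478 and 64132 CPM, in the 12 libraries. Kit is in both lists, so the stem and progenitor sum cannot be read apart from mast cells. In such bulk samples, fewer cells of a type and less RNA per cell cannot be told apart.

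Levels were compared between genes per length (RPKM, CPM per kilobase of the deposited exon length). Ldha, the muscle-type lactate dehydrogenase subunit, had the highest mean RPKM over the 12 libraries, 952 (lowest 589, highest 1290). Aldoa (aldolase) followed with a mean of 781 RPKM, Gapdh (glyceraldehyde phosphate dehydrogenase) with 669 RPKM and Pkm (pyruvate kinase) with 634 RPKM. The ranges of these first 4 overlapped, with Aldoa at 375 to 1188 RPKM, Gapdh at 432 to 959 RPKM and Pkm at 303 to 948 RPKM. Below them were Tpi1 (triose phosphate isomerase) at 435 RPKM, Pgk1 (phosphoglycerate kinase) at 275 RPKM, Gpi1 (glucose phosphate isomerase) at 262 RPKM and Eno1 (enolase) at 183 RPKM. The other 29 members had means of 114 RPKM (Hk1) or less, down to 4.77 RPKM for Mxi1 and 0.501 RPKM for Ldhb.

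Within each step of the pathway, 1 isozyme usually held most of the summed RPKM. Ldha made up at least 99.8% of the lactate dehydrogenase pair in every library, and Aldoa between 94.3% and 98.7% of the aldolase pair. Hk1, the hexokinase of most tissues, held 56.3% to 91.3% of the 3 hexokinases, and Pfkp, the platelet-type phosphofructokinase, 57.3% to 69.8% of its 3 isozymes. Eno1 held 82.6% to 99.5% of the enolase pair. Shares were less one-sided for the glucose transporters, where Slc2a3 (GLUT3) held 43.5% to 73.6% and Slc2a1 (GLUT1) the rest, and for the hydroxylases. Several of these genes have many processed pseudogenes (Gapdh, Eno1, Pgk1, Pgam1, Ldha, Aldoa, Tpi1, Pkm), so their counts are uncertain where the counting left out or split reads of near-identical copies.

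Many of the members are HIF targets and moved together between replicate numbers, so their promoters were read for ACGTG, 1 form of the core of the hypoxia response element, on either strand. The windows run from 250 bases before to 50 bases after each RefSeq transcript start (GRCm38.p6). Stretches of 5 are shown, 5′ to 3′ on the gene's strand, with the match in capitals: Ankrd37, Bnip3 and Egln3 as 3 of the members that differed most between numbers, Slc16a3 as the carrier with 2 matches near its start, and Hk2 as the gene that differs between the shRNAs, where CACGT is the match read on the other strand.
Ankrd37, chr8:45999832-46000100, minus strand: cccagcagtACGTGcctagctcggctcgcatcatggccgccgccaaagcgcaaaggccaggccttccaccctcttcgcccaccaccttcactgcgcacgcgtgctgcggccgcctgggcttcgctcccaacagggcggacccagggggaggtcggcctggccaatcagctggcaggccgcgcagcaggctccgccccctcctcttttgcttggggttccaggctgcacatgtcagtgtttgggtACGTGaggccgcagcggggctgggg
Bnip3, chr7:138909589-138909634, minus strand: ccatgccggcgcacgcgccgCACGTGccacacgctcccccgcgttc
Egln3, chr12:54204079-54204123, minus strand: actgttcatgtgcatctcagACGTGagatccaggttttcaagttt
Slc16a3, chr11:120949020-120949077, plus strand: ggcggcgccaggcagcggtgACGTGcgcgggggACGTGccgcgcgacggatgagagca
Hk2, chr6:82774482-82774700, minus strand: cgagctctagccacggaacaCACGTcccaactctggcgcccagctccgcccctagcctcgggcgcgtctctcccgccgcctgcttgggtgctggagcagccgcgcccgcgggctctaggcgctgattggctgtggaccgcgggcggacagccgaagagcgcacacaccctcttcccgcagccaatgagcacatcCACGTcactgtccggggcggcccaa

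With the first transcribed base as 0, the Ankrd37 matches begin at -241 and -6, that of Egln3 at -229, those of Slc16a3 at -27 and -14 and those of Hk2 at -226 and -52. In Bnip3 the letters read CACGTG, the E-box, which holds ACGTG on both strands, at -108. Over all members 29 of 54 windows (53.7%) and 25 of 35 genes with a window (71.4%) had a match. The shares of windows were 19.6% of 32851 for all promoters and 26.0% of 11763 for tested genes, and the shares of genes 21.8% for all promoters and 30.1% for tested genes. CACGTG was in 7 windows (13.0%), against 7.15% of all and 10.1% of tested genes' windows.

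NUP98-NSD1 cells were first compared with empty-vector cells, both with the control shRNA, which asks what the fusion changes. Without the block no member was called in either direction at an adjusted p under 0.05 (edgeR's quasi-likelihood test, Benjamini-Hochberg adjustment over all tested genes), and the background was 1 gene called higher (0.00834%) and none called lower (0%). At an unadjusted p under 0.05 there was 1 member of 36, and DESeq2 and limma-voom without the block also called 0. With the block, Egln3 was called higher and no member lower, on a background of 0.25% of tested genes called higher and 0.025% called lower. The members' median log2 fold change was -0.01, and that of all tested genes -0.00.

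Egln3 (chr12:54178981-54203860, minus strand) encodes the oxygen-sensing hydroxylase PHD3. It had 81.2, 68.4 and 7.65 CPM in NUP98-NSD1 replicates 1, 2 and 3, against 43.4, 48.0 and 2.61 CPM in the empty-vector replicates of the same numbers. The fusion library was the higher in all 3 pairs, but the groups overlapped because replicate 3 of both was far below the rest. The log2 fold change was 0.79 (SE 0.15, edgeR adjusted p = 0.0417 with the block and 1.00 without). The call was lost on leaving out any 1 of the 6 libraries of these groups other than empty-vector replicate 2, with log2 fold changes of 0.70 to 0.88 and edgeR adjusted p of 0.0874 to 0.242.

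Slc16a1 (chr3:104638668-104658462, plus strand), the lactate and pyruvate carrier MCT1, had 23.0, 21.4 and 54.9 CPM in NUP98-NSD1 replicates 1, 2 and 3, against 13.8, 14.7 and 21.5 CPM in empty-vector replicates. The fusion library was again above its pair 3 times of 3, and the groups overlapped by a narrow margin. Its log2 fold change of 0.92 (SE 0.18) did not pass (edgeR adjusted p = 0.0600 with the block). Egln2, which encodes the hydroxylase PHD1, had 60.2, 61.1 and 57.5 CPM in NUP98-NSD1 replicates and 78.9, 70.9 and 71.2 CPM in empty-vector replicates. These groups did not overlap, yet the log2 fold change of -0.30 (SE 0.094) did not pass either (edgeR adjusted p = 0.272 with the block).

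The 2 shRNAs against Nizp1 were each compared with the control shRNA in NUP98-NSD1 cells, which asks what changes when Nizp1 is reduced under the fusion. Both comparisons use the same 3 control libraries, which also serve the comparison with the empty vector, so they are not independent of each other. Without the block no member was called with either shRNA, on a background of 0% higher and 0% lower for shNizp1#1 and of 0% higher and 0.00834% lower for shNizp1#2. At an unadjusted p under 0.05 there were 0 members with shNizp1#2 and 3 with shNizp1#1, and DESeq2 and limma-voom without the block also called 0 with either. With the block, shNizp1#2 had 1 member called higher (background 0.142%) and none lower (0.075%), and shNizp1#1 had 1 called higher (0.509%) and 1 called lower (1.12%).

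Hk2 (chr6:82725025-82774454, minus strand) encodes the inducible hexokinase that binds mitochondria. In shNizp1#2 libraries it had 203, 239 and 157 CPM in replicates 1, 2 and 3. In shNizp1#1 libraries it had 86.1, 113 and 55.8 CPM, against 135, 205 and 123 CPM in control-shRNA libraries and 130, 178 and 65.8 CPM in empty-vector libraries. Every shNizp1#1 library was below every control-shRNA and every shNizp1#2 library, while shNizp1#2 and control-shRNA libraries overlapped. Hk2 fell in shNizp1#1 cells by 0.89 on the log2 scale relative to control-shRNA cells (SE 0.14, edgeR adjusted p = 0.00932 with the block). With shNizp1#2 the log2 fold change against the same control libraries was 0.39 (SE 0.14), which did not pass (edgeR adjusted p = 0.317). The fall with shNizp1#1 was called without NUP98-NSD1 replicate 1 (-1.01, edgeR adjusted p = 0.0182) and without shNizp1#1 replicate 1 (-0.90, edgeR adjusted p = 0.0411). It just missed the threshold without NUP98-NSD1 replicate 2 or 3 or shNizp1#1 replicate 2 or 3 (log2 fold changes between -0.90 and -0.76, edgeR adjusted p of 0.0566 to 0.0618).

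Set against each other, the shNizp1#2 and shNizp1#1 libraries differed in Hk2 by 1.27 on the log2 scale (SE 0.14, edgeR adjusted p = 0.00101 with the block), higher with shNizp1#2 in all 3 pairs. Without the block the log2 fold change was 1.24 (edgeR adjusted p = 0.574), on a background of 0% called higher and 0.00834% called lower, and 2 members had an unadjusted p under 0.05 in that fit. With it Hk2 was the 1 member called higher, on a background of 1.78%, and no member was called lower, on a background of 0.584%. The call held in all 13 blocked alternatives, with differences between 1.17 and 1.37 and a highest edgeR, DESeq2 or limma adjusted p of 0.0261. Per length, Hk2 made up 24.1% ± 6.35 of the summed hexokinase RPKM in shNizp1#2 libraries and 10.4% ± 3.92 in shNizp1#1 libraries, against 18.9% ± 4.12 in control-shRNA and 15.1% ± 5.98 in empty-vector libraries (SD, n = 3 each).

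Slc2a3 (chr6:122727809-122742745, minus strand), the high-affinity glucose transporter GLUT3, had 574, 304 and 276 CPM in shNizp1#2 replicates 1, 2 and 3 and 623, 368 and 226 CPM in shNizp1#1 replicates. Control-shRNA libraries had 388, 209.9 and 187 CPM. Both shRNAs were above the control library of the same number 3 times of 3, although the groups overlapped. The log2 fold change was 0.55 with shNizp1#2 (SE 0.13, edgeR adjusted p = 0.116 with the block) and 0.60 with shNizp1#1 (SE 0.13, edgeR adjusted p = 0.0301), so that Slc2a3 was called higher with shNizp1#1. That call held without shNizp1#1 replicate 3 (0.78, edgeR adjusted p = 0.0104) and was lost without any 1 of the other 5 libraries (0.45 to 0.62, edgeR adjusted p of 0.136 to 0.159).

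Ankrd37 (chr8:45996902-45999867, minus strand), a small ankyrin-repeat gene known as a HIF-1 target, had 10.8, 42.4 and 1.03 CPM in shNizp1#2 replicates 1, 2 and 3. It had 5.95, 29.6 and 0.694 CPM in shNizp1#1 replicates, against 3.94, 21.6 and 0.196 CPM in control-shRNA replicates. The order was the same in each number, shNizp1#2 first and the control last, while the numbers themselves lay far apart. The log2 fold change was 1.19 with shNizp1#2 (SE 0.22, edgeR adjusted p = 0.0432 with the block), so that Ankrd37 was called higher, and 0.54 with shNizp1#1 (SE 0.23, edgeR adjusted p = 0.351). The call with shNizp1#2 was lost on leaving out any 1 of its 6 libraries, with log2 fold changes of 1.09 to 1.46 and edgeR adjusted p of 0.121 to 0.285. Exons of Ankrd37 share 20.1% of their bases with Lrp2bp and 6.15% with Ufsp2 on the file's coordinates, both on the other strand. Over all libraries Lrp2bp held 22 counts and Ufsp2 3875, against 744 for Ankrd37. Replicate 3 of the control held 1 count of Ankrd37.

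**Figure D1:**
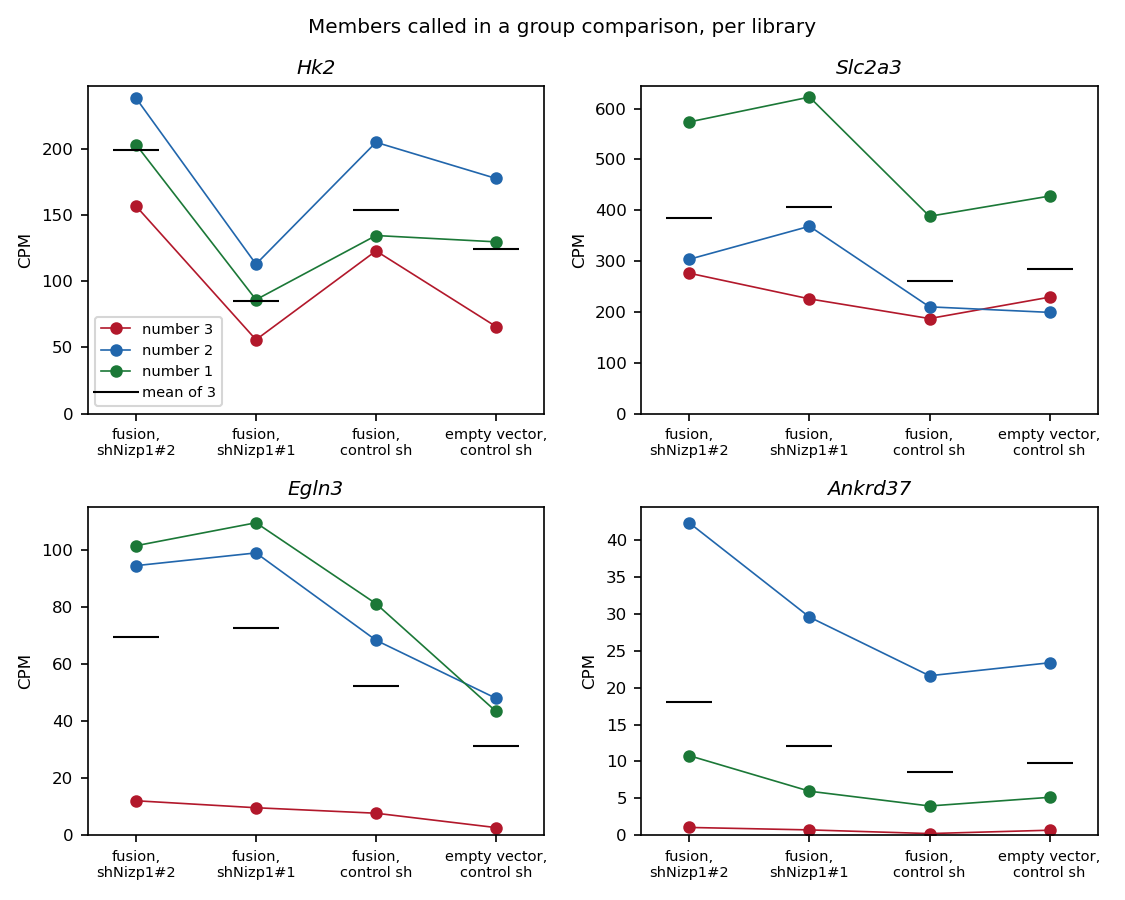
CPM (vertical axis) of Hk2, Slc2a3, Egln3 and Ankrd37, the members called in a comparison of groups, in each library of shNizp1#2, shNizp1#1, NUP98-NSD1 with control shRNA and empty vector, left to right. Lines join libraries with the same replicate number and bars are means of 3, so that a shared shape of the 3 lines shows a difference between groups and the gap between lines the spread between numbers, widest for Ankrd37 (0.196 to 42.4 CPM).

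Ndrg1, a stress- and hypoxia-induced gene, and Vegfa, the angiogenic growth factor, came next by unadjusted p and were not called. Ndrg1 had 321, 383 and 79.5 CPM in shNizp1#2 replicates 1, 2 and 3 and 322, 422 and 69.3 CPM in shNizp1#1 replicates, against 283, 313 and 53.0 CPM in control-shRNA replicates. Each pair was higher with the shRNA against Nizp1, by 0.34 with shNizp1#2 (SE 0.099, edgeR adjusted p = 0.214 with the block) and 0.33 with shNizp1#1 (SE 0.099, edgeR adjusted p = 0.141) on the log2 scale. Egln2 had 69.3, 63.5 and 69.0 CPM in shNizp1#2 replicates 1, 2 and 3 and 73.7, 73.7 and 65.3 CPM in shNizp1#1 replicates, all above the 57.5 to 61.1 CPM of control-shRNA replicates. The log2 fold changes of 0.17 (SE 0.093, edgeR adjusted p = 0.517 with the block) with shNizp1#2 and 0.25 (SE 0.094, edgeR adjusted p = 0.271) with shNizp1#1 were not called. Egln3 had 102, 94.6 and 12.0 CPM in shNizp1#2 replicates and 109.7, 99.1 and 9.58 CPM in shNizp1#1 replicates. Control-shRNA replicates had 81.2, 68.4 and 7.65 CPM, lower in all 3 pairs. Egln3 thus lay further above the empty vector, while Egln2 lay nearer to it. Among the 4 genes of HIF-1 and its hydroxylases the highest log2 fold change was 0.45 with each shRNA, and none was called. Vegfa had 155, 192 and 82.0 CPM with shNizp1#2, against 121, 163 and 69.3 CPM with shNizp1#1. The difference of 0.28 (SE 0.094, edgeR adjusted p = 0.155 with the block) did not pass, nor did that of Ankrd37 between these 2 shRNAs (0.65, SE 0.22, edgeR adjusted p = 0.15).

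With the block, shNizp1#2 was compared with the control shRNA for the 8 hypoxia-induced members outside glycolysis (Ankrd37, Bnip3, Vegfa, P4ha1, P4ha2, Ndrg1, Kdm3a, Mxi1). All 8 had log2 fold changes above 0, from 0.12 to 1.19 with a median of 0.25, and 1 of the 8 was called. Against shNizp1#1 the same 8 lay between 0.01 and 0.65, with a median of 0.22 and none called. Without the block 7 of the 8 were above 0 against shNizp1#1, and the lowest was -0.05. A further list of 29 tested hypoxia-induced genes, described below, was less uniform with the block. With shNizp1#2 against the control shRNA 20 of the 29 were above 0, with a median of 0.12 and none called. Against shNizp1#1 14 of the 29 were above 0, with a median of -0.02. Over all tested members the median log2 fold change was 0.08 with shNizp1#2 and -0.01 with shNizp1#1, each against the control shRNA, beside medians of all tested genes that rounded to 0.00. At an unadjusted p under 0.05 with the block there were 11 of 36 members with shNizp1#2 (30.6%, against 11.1% of all tested genes) and 10 with shNizp1#1 (27.8%, against 12.3%). Between the shRNAs there were 9 members (25%, against 14.8%), and between NUP98-NSD1 and the empty vector 4 (11.1%, against 11.0%).

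A much wider spread ran between the replicate numbers. In the fit with group and number, the libraries numbered 3 were set against those numbered 1 and 2, and those numbered 2 against those numbered 1. The series describes independent experiments, but that a number stands for 1 experiment is read from the data, and if so the 4 libraries of a number are not independent samples and these adjusted p are too small. In number 3, 30 of the 36 tested members were called lower and 2 higher, on a background of 23.2% of tested genes called lower and 20.8% called higher. The 2 called higher became 1 without NUP98-NSD1 replicate 3. The members' median log2 difference was -1.16 and that of all tested genes 0.01. For 25 members all 4 number-3 libraries lay below all 8 others, as for 9.2% of tested genes, and for none above, as for 6.68%. The 37 members together took 0.767% to 0.843% of the counts in number 3, against 1.28% to 1.35% in number 2 and 1.65% to 1.69% in number 1.

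**Figure D2:**
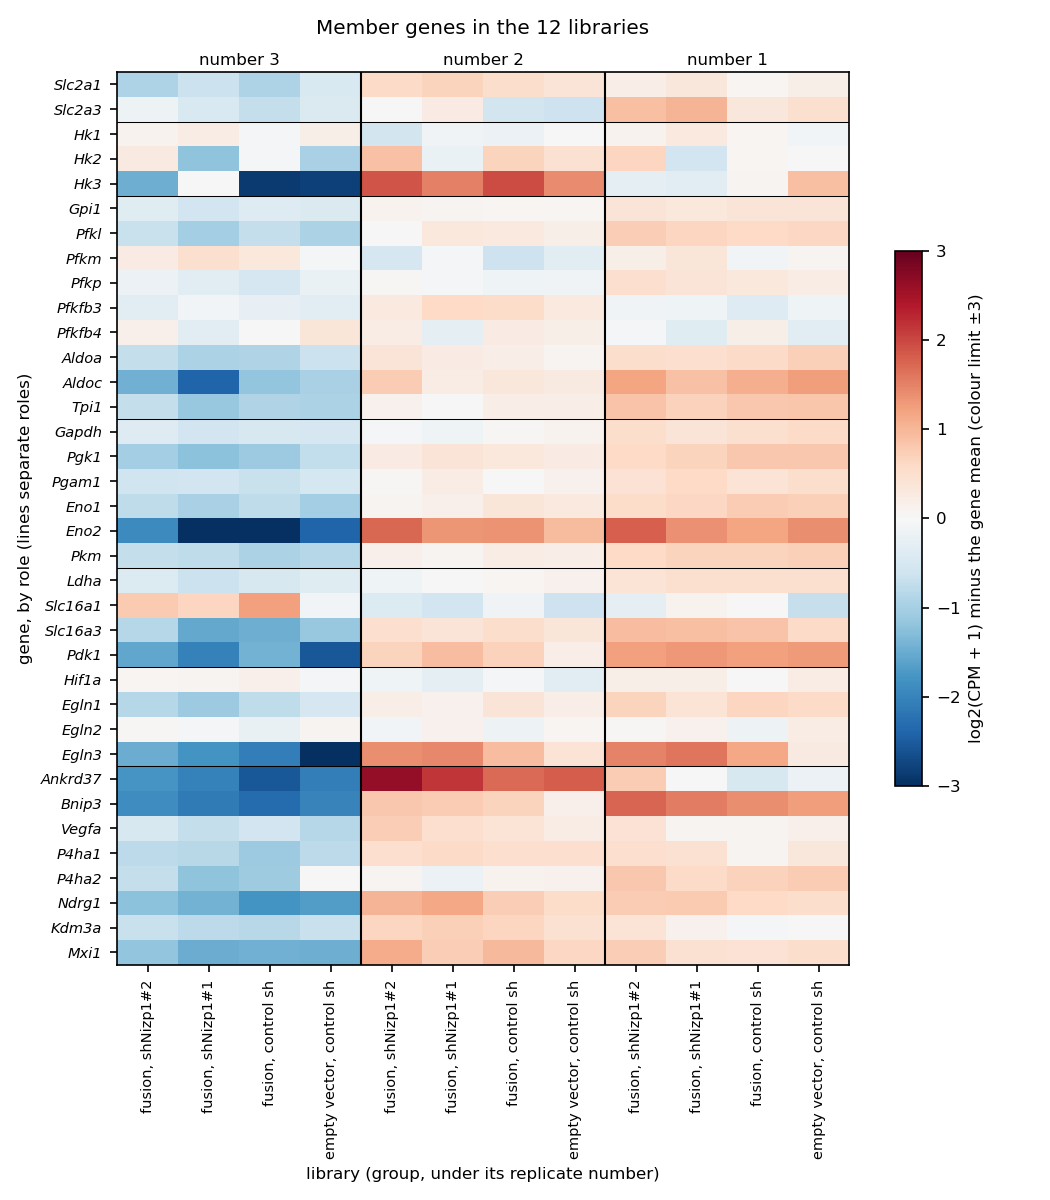
Heat map of log2(CPM + 1) minus the mean of each gene over the 12 libraries for the 36 tested members (down, by role), with columns in blocks of replicate number 3, 2 and 1 and, within each block, shNizp1#2, shNizp1#1, NUP98-NSD1 with control shRNA and empty vector. The colour scale ends at 3 in either direction, and the block of number 3 is below the gene mean in most members, led by Ankrd37, Eno2, Egln3 and Bnip3.

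All 8 hypoxia-induced members outside glycolysis were called lower in number 3, with a median log2 difference of -1.76. Bnip3 (chr7:138890836-138909506, minus strand), a mitochondrial protein that promotes mitophagy, had 16.7, 13.7, 12.0 and 15.0 CPM in number-3 libraries of shNizp1#2, shNizp1#1, NUP98-NSD1 with control shRNA and empty vector, the order kept below. It had 112, 108, 101 and 70.9 CPM in number 2 and 214, 187, 168 and 152 CPM in number 1. All 4 groups showed the same order of numbers, and the fall was 3.21 on the log2 scale (log2 difference -3.21, SE 0.11, edgeR adjusted p = 1.25e-10). Ankrd37 had 1.03, 0.694, 0.196 and 0.652 CPM in number 3, from 1 to 7 counts a library, against 42.4, 29.6, 21.6 and 23.4 CPM in number 2 and 10.8, 5.95, 3.94 and 5.12 CPM in number 1. Its log2 difference was -4.37 (SE 0.23, edgeR adjusted p = 1.54e-08), and numbers 2 and 1 stood apart from each other as well.

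The other 6 of these genes were also lower in number 3. Ndrg1 (-2.32) and Mxi1 (-2.21), which encodes an antagonist of Myc, had the next log2 differences. P4ha1 and P4ha2, which encode collagen prolyl hydroxylase subunits, had -1.32 and -1.11, Kdm3a, a histone demethylase, had -1.12 and Vegfa -1.0 (SE 0.074 to 0.15, highest edgeR adjusted p 1.68e-04). Mxi1, for example, averaged 9.21 ± 1.00 CPM in number 3, against 48.0 ± 7.47 CPM in number 2 and 38.0 ± 3.91 CPM in number 1 (SD, n = 4 each).

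Of the HIF-1 subunit and its hydroxylases, Egln3 and Egln1 fell, and Hif1a and Egln2 were not called. Egln3 had 12.0, 9.58, 7.65 and 2.61 CPM in number 3, against 94.6, 99.1, 68.4 and 48.0 CPM in number 2 and 102, 109.7, 81.2 and 43.4 CPM in number 1. The log2 difference was -3.34 (SE 0.13, edgeR adjusted p = 5.43e-10), with the groups in nearly the same order within each number. Egln1, the main oxygen sensor PHD2, averaged 53.2 ± 9.09 CPM in number 3, against 109 ± 8.31 CPM in number 2 and 139 ± 10.9 CPM in number 1 (log2 difference -1.22, SE 0.08, edgeR adjusted p = 1.47e-07). Hif1a averaged 195 ± 11.8, 164 ± 16.8 and 208 ± 13.4 CPM in numbers 3, 2 and 1 (log2 difference 0.08, SE 0.07, edgeR adjusted p = 0.428), and Egln2 65.7 ± 6.02, 67.3 ± 5.94 and 70.5 ± 7.92 CPM (log2 difference -0.07, SE 0.07, edgeR adjusted p = 0.462). Egln3 thus made up 1.91% to 9.07% of the summed RPKM of the 3 hydroxylases in number 3, against 22.6% to 37.8% in number 2 and 18% to 37.8% in number 1, and Egln2 59.1% to 65.6%, against 30.7% to 40.3% and 27.8% to 39.5%.

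All 6 members of lower glycolysis were called lower in number 3, with a median log2 difference of -1.27. Eno2 (chr6:124760055-124769673, minus strand), the enolase known from neurons, had 7.48, 2.92, 1.37 and 5.0 CPM in number 3, from 7 to 51 counts a library. It had 104, 78.7, 80.7 and 60.7 CPM in number 2 and 109, 81.6, 71.6 and 83.1 CPM in number 1. Number 3 thus stood apart from numbers 2 and 1, which overlapped (log2 difference -4.33, SE 0.22, edgeR adjusted p = 3.66e-07). Its share of the enolase RPKM was 0.495% to 2.66% in number 3, against 9.66% to 17.4% in number 2 and 8.36% to 13.8% in number 1. Pgk1, which makes the first ATP of the pathway, had a log2 difference of -1.53, Eno1 -1.31, Pkm -1.22, Pgam1 (phosphoglycerate mutase) -0.90 and Gapdh -0.73 (SE 0.061 to 0.087, highest edgeR adjusted p 1.40e-06). Pkm averaged 860.3 ± 62.7 CPM in number 3, against 1693 ± 69.6 CPM in number 2 and 2388 ± 77.3 CPM in number 1 (SD, n = 4 each).

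In upper glycolysis 7 of 9 tested members fell in number 3 and 1 rose, with a median log2 difference of -0.66. Aldoc, the aldolase of brain, averaged 29.9 ± 11.4 CPM in number 3, against 109 ± 20.7 CPM in number 2 and 177 ± 19.1 CPM in number 1 (log2 difference -2.27, SE 0.19, edgeR adjusted p = 3.20e-05). Tpi1 (-1.40), Pfkl (-1.27), the liver-type phosphofructokinase, and Aldoa (-1.20) followed, and Gpi1 (-0.66), Pfkp (-0.45) and Pfkfb3 (-0.37), which makes an activator of phosphofructokinase, fell less. Pfkm, the muscle-type phosphofructokinase, averaged 50.4 ± 7.68 CPM in number 3, against 32.8 ± 6.18 CPM in number 2 and 46.6 ± 6.12 CPM in number 1, with overlap (log2 difference 0.37, SE 0.096, edgeR adjusted p = 0.00651). Pfkfb4, a second enzyme of the Pfkfb3 kind, averaged 26.2 ± 5.27, 26.8 ± 4.52 and 22.8 ± 4.32 CPM in numbers 3, 2 and 1 and was not called.

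Both glucose transporters and 2 of the 3 hexokinases were lower in number 3. Slc2a1 averaged 94.2 ± 15.7 CPM in number 3, against 228 ± 18.4 CPM in number 2 and 179 ± 14.5 CPM in number 1 (log2 difference -1.11, SE 0.09, edgeR adjusted p = 7.06e-07). Slc2a3 averaged 229 ± 36.5 CPM in number 3, 270.2 ± 80.6 CPM in number 2 and 503 ± 113 CPM in number 1 (log2 difference -0.66, SE 0.10), and number 3 overlapped number 2. Hk2 had a log2 difference of -0.72 (SE 0.11), and Hk1 averaged 593 ± 44.0, 479.7 ± 76.3 and 584 ± 64.6 CPM in numbers 3, 2 and 1 and was not called (log2 difference 0.17, edgeR adjusted p = 0.143). Hk3 (chr13:55005985-55021385, minus strand), a hexokinase of myeloid cells, had 4.84, 15.1, 1.18 and 1.30 CPM in number 3, against 58.4, 44.7, 60.9 and 42.0 CPM in number 2 and 12.1, 11.7, 16 and 28.8 CPM in number 1. The shNizp1#1 library of number 3 lay among those of number 1, and the spread among number-3 libraries was wide. The log2 difference of -2.39 (SE 0.67, edgeR adjusted p = 0.0285) lost its call without number-3 empty vector, NUP98-NSD1 or shNizp1#2, without NUP98-NSD1 replicate 1 or without shNizp1#2 replicate 2 (-2.38 to -1.99, edgeR adjusted p of 0.0513 to 0.0939).

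Of the genes for lactate and pyruvate, Slc16a3, Ldha and Pdk1 fell in number 3 and Slc16a1 rose. Pdk1 (chr2:71873224-71903858, plus strand), the kinase that inhibits pyruvate dehydrogenase, had 11.3, 7.92, 12.6 and 5.21 CPM in number 3, against 56.7, 68.4, 58.0 and 40.5 CPM in number 2 and 83.7, 89.0, 84.1 and 86.3 CPM in number 1. None of these 3 sets of 4 overlapped another (number 3 log2 difference -2.91, SE 0.17, edgeR adjusted p = 1.56e-07). Slc16a3 (MCT4), the lactate exporter of glycolytic tissues, averaged 53.5 ± 11.9 CPM in number 3, against 171 ± 9.77 CPM in number 2 and 223 ± 24.0 CPM in number 1 (log2 difference -1.88, SE 0.11, edgeR adjusted p = 6.25e-08). Ldha had a log2 difference of -0.71 (SE 0.07). Slc16a1 had 40.2, 36.5, 54.9 and 21.5 CPM in number 3, against 17.0, 15.1, 21.4 and 14.7 CPM in number 2 and 18.8, 24.7, 23.0 and 13.8 CPM in number 1. It was above both other numbers in each group, although the empty-vector library of number 3 lay among the others (log2 difference 1.02, SE 0.13, edgeR adjusted p = 3.97e-05). Slc16a1 made up 27.5% to 55.0% of the RPKM of the 2 carriers in number 3, against 8.38% to 10.6% in number 2 and 6.88% to 9.51% in number 1.

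**Figure D3:**
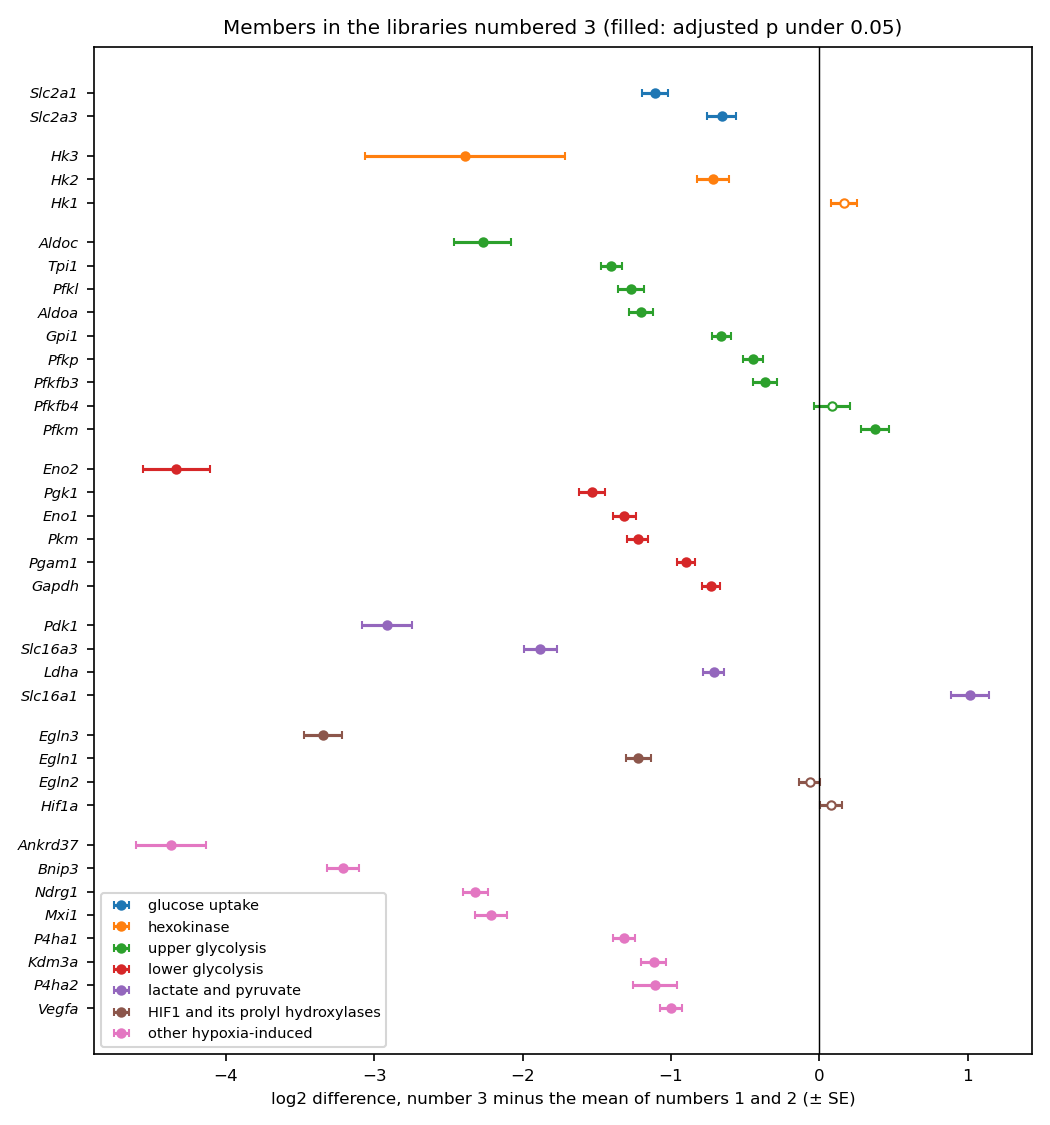
Log2 difference (horizontal axis, with its SE) of the libraries numbered 3 against the mean of those numbered 1 and 2 for the 36 tested members, ordered by role. Filled points are called, 30 below 0 and 2 (Slc16a1 and Pfkm) above it, and the 4 uncalled members, Hif1a, Egln2, Pfkfb4 and Hk1, lie within 0.17 of 0.

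**Figure D4:**
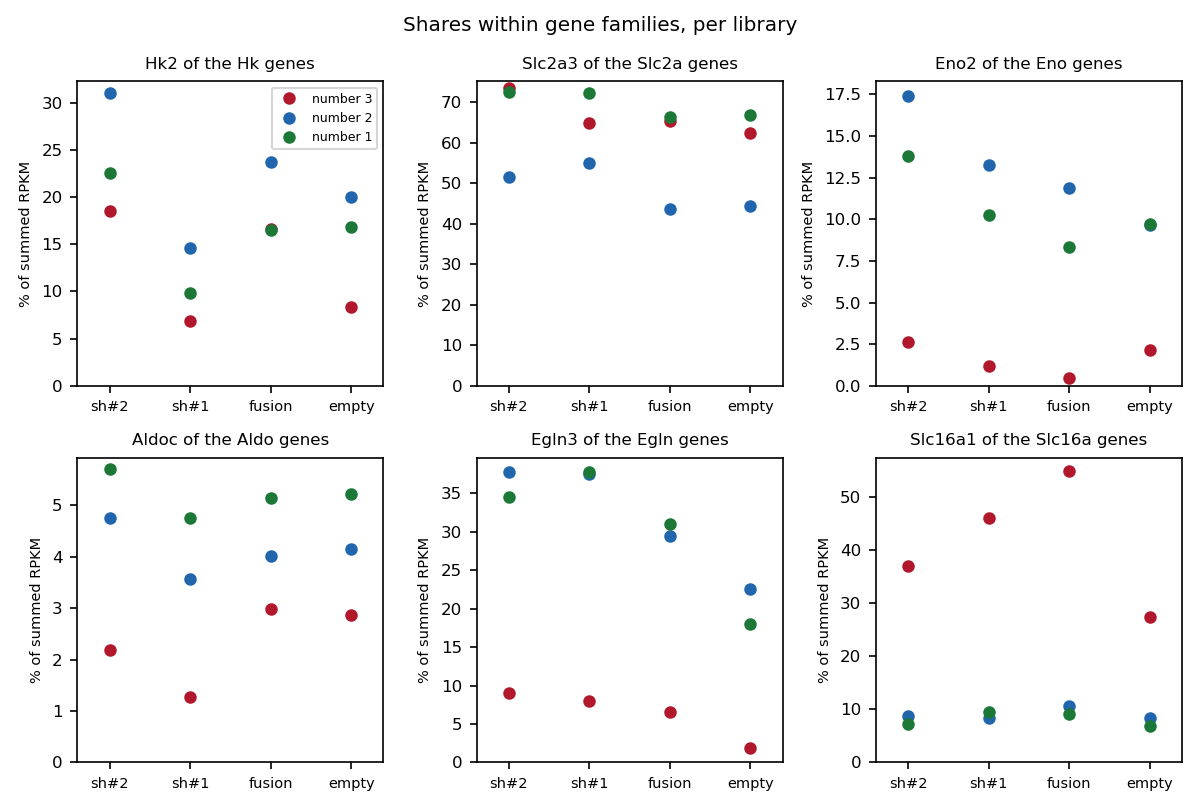
Share (percent, vertical axis) of Hk2, Slc2a3, Eno2, Aldoc, Egln3 and Slc16a1 in the summed RPKM of their families in each of the 12 libraries, by replicate number 3, 2 and 1 and by group. The shares of Eno2 and Egln3 are lower in number 3 and that of Slc16a1 is higher, while the share of Hk2 is lowest with shNizp1#1 within each number.

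The difference between numbers was present inside each group. On the log2(CPM + 1) scale, 30 members were lower in number 3 than in the mean of numbers 1 and 2 in 4 of 4 groups, 1 in 3 groups, 2 in 1 group and 3 in no group. These counts were made for the members only, so they have no background of all tested genes. Hk3 varied most between groups, from -0.57 in shNizp1#1 to -3.96 in empty-vector cells. P4ha2 had -0.42 in empty-vector cells and between -1.47 and -1.17 in the other groups.

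Numbers 2 and 1 differed too, and not in the same way for all members. In number 2, 20 of 36 members were called lower than in number 1 and 7 higher, on a background of 12.6% of tested genes called lower and 13.4% called higher, with a median of -0.34 against -0.04 for all tested genes. In lower glycolysis 5 of 6 were lower and none higher, in upper glycolysis 7 of 9 lower and 1 higher, and among the hypoxia-induced genes outside glycolysis 2 of 8 lower and 4 higher. Ankrd37 was higher in number 2, by 2.20 on the log2 scale (SE 0.17, edgeR adjusted p = 2.05e-06), and Slc2a3 (-0.91, SE 0.11, edgeR adjusted p = 1.23e-04) and Bnip3 (-0.88, SE 0.098, edgeR adjusted p = 5.28e-05) were lower. Aldoc (-0.69, SE 0.19, edgeR adjusted p = 0.0278), P4ha2 (-0.69, SE 0.16, edgeR adjusted p = 0.00981) and Tpi1 (-0.67, SE 0.074, edgeR adjusted p = 5.28e-05) followed. Aldoc lost its call without replicate 1 or 2 of the empty vector or of NUP98-NSD1 and without replicate 1 of shNizp1#1 or shNizp1#2 (-0.74 to -0.52, edgeR adjusted p of 0.0574 to 0.121), and P4ha2 without shNizp1#1 replicate 1 (edgeR adjusted p = 0.0506) or shNizp1#2 replicate 2 (edgeR adjusted p = 0.0536). The other members called higher in number 2 were Pfkfb3 (0.63), Kdm3a (0.49), Hk2 (0.42), Slc2a1 (0.36), Mxi1 (0.33) and Vegfa (0.28). The 7 called higher became 3 without NUP98-NSD1 replicate 1 and 4 without NUP98-NSD1 replicate 2, shNizp1#1 replicate 2, shNizp1#2 replicate 1 or shNizp1#2 replicate 2.

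Members with and without ACGTG in the promoter windows printed or counted above had overlapping ranges in number 3. The median log2 difference was -1.11 for the 25 tested members with a match and -1.27 for the 9 without. Slc16a1, which rose in number 3, had matches, and Eno2 and Pdk1, which fell, had none in these windows. No match says only that these letters are not in the window.

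Related genes were read from 6 further lists, in number 3 against numbers 1 and 2, where 23.2% of all tested genes were called lower and 20.8% higher. Other hypoxia-induced genes were lower in 23 of 29 tested and higher in none, with a median log2 difference of -0.69. Among them were Ak4 (-4.49), a mitochondrial adenylate kinase, Loxl2 (-2.97), a lysyl oxidase, and Rora (-2.14), a nuclear receptor. Loxl2 held 0 to 9 counts and Rora 0 to 16 counts in a number-3 library. Rora had 2.22 CPM in the number-3 shNizp1#1 library, above the 1.24 CPM of the number-1 empty-vector library. Nos2 (inducible nitric oxide synthase) had no count in number 3 and was at least 11.2-fold lower, taking 3 counts over the 4 libraries as its limit. Of the 10 tested genes of other HIF subunits and HIF degradation, 3 were lower and none higher, namely Epas1 (HIF-2 alpha, -2.45), Arnt2 (-1.79) and Vhl (-0.43). Epas1 held 1 to 14 counts and Arnt2 0 to 14 counts in a number-3 library. In shNizp1#1 cells Epas1 was higher in number 3 (1.94 CPM) than in number 1 (0.476 CPM). Of 13 regulators of glucose use, 4 were lower, namely Arrdc4 (-2.60) and Txnip (-1.89), arrestin-like brakes on glucose uptake, Mlxip (-0.31), a glucose-sensing transcription factor, and Foxo3 (-0.23), and none was higher. The shares called lower of these last 2 lists, 3 of 10 and 4 of 13, were near that of all tested genes.

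Genes of the mitochondrial use of pyruvate went the other way. Of 28 tested genes of pyruvate dehydrogenase and the TCA cycle, 19 were higher in number 3 and none lower, with a median log2 difference of 0.32, led by Idh3a (0.76), Idh2 (0.64), Ogdh (0.60) and Suclg2 (0.51). The pentose phosphate list had 3 of 9 higher (Taldo1, Tkt and Rpia) and 1 lower (Tktl1, -3.13), with a median of 0.23. Of 18 other genes of glycolysis and gluconeogenesis, 4 were lower (Fbp1 -2.04, Pgm1 -0.83, Slc16a7 -0.68 and Bsg -0.58) and 4 higher (Bpgm 0.69, Pck2 0.64, G6pc3 0.55 and Pgm2 0.51), shares near those of all tested genes, with a median of -0.11. In number 2 against number 1, where 12.6% of tested genes were called lower and 13.4% higher, 10 of the 28 genes of the TCA list were lower and none higher, with Idh3a at -0.51, and the other hypoxia-induced genes split into 9 lower and 5 higher, with Car9 at -0.76 and Plin2 at 1.13.

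**Figure D5:**
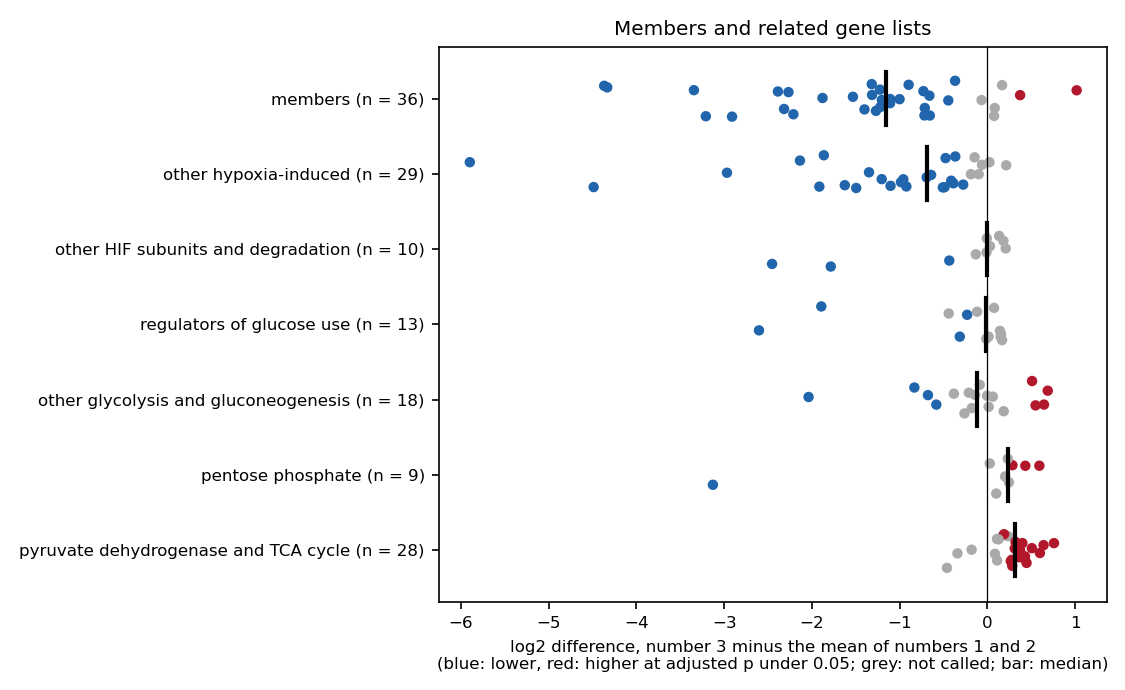
Log2 difference (horizontal axis) of number 3 against numbers 1 and 2 for each tested gene of the members and of the 6 related lists (down), with a bar at the median. Blue points are called lower, red points called higher and grey points not called; members and other hypoxia-induced genes lie mostly below 0 (medians -1.16 and -0.69) and pyruvate dehydrogenase and TCA genes mostly above it (median 0.32).

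Between groups, with the block, 3 genes of these lists were called, each the only one of its list. They were 1 of 28 tested genes of the TCA list, 1 of 29 other hypoxia-induced genes and 1 of 13 regulators of glucose use. The background for shNizp1#1 against the control shRNA was 0.509% of tested genes called higher and 1.12% called lower. For shNizp1#2 against shNizp1#1 it was 1.78% called higher and 0.584% called lower. Idh3b, a subunit of isocitrate dehydrogenase, had 73.7, 76.8 and 93.5 CPM in shNizp1#2 replicates 1, 2 and 3 and 54.0, 39.6 and 56.0 CPM in shNizp1#1 replicates, against 89.3, 81.5 and 118 CPM in control-shRNA replicates. It was lower in shNizp1#1 than in control-shRNA libraries (log2 fold change -0.94, SE 0.11, edgeR adjusted p = 1.00e-03), and higher in shNizp1#2 than in shNizp1#1 libraries (0.71, SE 0.11, edgeR adjusted p = 0.00342). Hmox1, haem oxygenase, had 49.1, 70.3 and 43.9 CPM in shNizp1#2 replicates and 96.1, 88.5 and 99.3 CPM in shNizp1#1 replicates, against 60.7, 57.8 and 56.1 CPM in control-shRNA replicates. All 3 shNizp1#1 libraries were the highest (0.71 against the control shRNA, SE 0.16, edgeR adjusted p = 0.0443, and -0.81 for shNizp1#2 against shNizp1#1, SE 0.16, edgeR adjusted p = 0.0176). Mlxip had 104, 127 and 85.5 CPM in shNizp1#2 replicates, against 68.5, 94.1 and 62.8 CPM in shNizp1#1 replicates, with overlap (0.49, SE 0.098, edgeR adjusted p = 0.0164). None was called in NUP98-NSD1 against the empty vector or in shNizp1#2 against the control shRNA.

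Markers of mature myeloid cells moved with the replicate number as well. The 10 neutrophil markers summed to 4.34 to 14.2 CPM in number 3, against 1014 to 2057 CPM in number 2 and 246 to 528 CPM in number 1. The 8 monocyte and macrophage markers summed to 322 to 1312 CPM in number 3, against 2232 to 3731 CPM in number 2 and 1056 to 1809 CPM in number 1, and the dendritic list to 30.4 to 64.6 CPM, against 144 to 500 CPM and 78.4 to 116 CPM. The mast cell sum was 39478 to 46314 CPM in number 3, against 47520 to 59057 CPM in number 2 and 50501 to 64132 CPM in number 1, and the stem and progenitor sum 3944 to 4836 CPM, against 4016 to 4447 CPM and 4170 to 4953 CPM. The T and NK cell list and the stromal list were near 0, with Cd8a at 0 in all libraries. The part of these cells in the members' differences was not tested.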

How the data were processed

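The 12 libraries (4 groups of 3) were stranded mRNA libraries built from 1 µg of total RNA and sequenced as single 75 nt reads, per the labels' protocols. The authors deposited raw read counts for each gene. The submitters' processing notes name Trimmomatic 0.32, STAR 2.5.3a, featureCounts and the build mm10. For featureCounts, its version, strand setting and annotation were not stated in the sources used here, so reads of overlapping antisense genes may not have been told apart. On the file's coordinates 14 of 37 members share exon bases with another listed gene, 13 of them on the other strand, at most 27.2% of the exon length (Bnip3).

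Counts were fitted in R 4.3.3 with edgeR 4.0.16 (quasi-likelihood test, filterByExpr, TMM scaling, group means over all 12 libraries), and p-values were adjusted over all 11994 tested genes, with calls at an adjusted p under 0.05. CPM and RPKM use the TMM-scaled totals of tested genes and the deposited lengths. Results with the replicate number added to the model as a block stand beside these because calls change. Same-numbered libraries deviated together from their group means in all 18 pairs (median r 0.74, against -0.20 for other numbers, with 0.1 as the minimum), which pairs them by the data, as the labels do not tie a number to an experiment. Replicate libraries differed by more than sampling noise, and all p-values measure only the spread between these libraries. There are no molecular identifiers, so intervals of counting are minimal.

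The members and the related lists were chosen with earlier results of these data known. Named were all members called in either fit, at least 3 by blocked p in each comparison of groups, the 6 largest called changes between replicate numbers and up to 4 called genes of each related list. Alternatives were RLE and upper-quartile scaling, no filter, DESeq2 1.42.0, limma-voom (limma 3.58.1), fits of only the 2 groups, and leaving out each library or replicate 3 of every group. The edgeR steps were tested on simulated counts. Promoter sequences are from RefSeq (GRCm38.p6). Slc2a3 and Ndrg1 were not matched there.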

Additional observations from a re-analysis of the deposited data

Results flagged for a closer look

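Between the 2 shRNAs against Nizp1, whose libraries also share the same control, 1 member and 3 genes of the related lists differed. This was a test of the difference itself, in the edgeR fit with the replicate block. Of all tested genes, 1.78% were called higher and 0.584% lower in it. The share called was 2.78% of tested members and 2.37% of all tested genes, so the members were near the background. In the related lists 1 of 28 genes of the TCA list, 1 of 29 other hypoxia-induced genes and 1 of 13 regulators of glucose use were called. The remaining lists had none. With 1 gene called, a list as a set cannot be told from the background. Hk2 was higher with shNizp1#2 than with shNizp1#1 by 1.27 on the log2 scale (SE 0.14, edgeR adjusted p = 0.00101, 3 of 3 pairs). Idh3b was higher by 0.71 (SE 0.11, edgeR adjusted p = 0.00342), and Mlxip by 0.49 (SE 0.098, edgeR adjusted p = 0.0164). Hmox1 was lower with shNizp1#2, with a difference of -0.81 (SE 0.16, edgeR adjusted p = 0.0176). In Zkscan17 itself the shRNAs differed by -0.32 (SE 0.13, edgeR adjusted p = 0.230), and its part in these differences was not tested.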

How the results depend on the processing

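Every member called between groups was called in fits with the replicate block and none without it, so the block moved the count from 0 to 1 for higher members in NUP98-NSD1 against the empty vector, higher and lower members with shNizp1#1, higher members with shNizp1#2 and higher members in shNizp1#2 against shNizp1#1. With the block, members higher in NUP98-NSD1 numbered 2 with upper-quartile scaling, no filter, DESeq2 or limma-voom, 0 with only the 2 groups and 0 to 2 with a library left out. Of all tested genes, 30 were called higher in the blocked edgeR fit. They numbered 32 with upper-quartile scaling, 60 with DESeq2, 25 with limma-voom and 10 with only the 2 groups. Such all-gene counts are not given here for fits with no filter or with a library left out. With shNizp1#1, higher members numbered 0 with only the 2 groups and 0 to 1 with a library left out, and lower ones 2 with no filter and 0 to 1 with a library left out. With shNizp1#2, higher members numbered 4 with no filter, 5 with only the 2 groups, 0 with limma-voom and 0 with any library left out. All tested genes called higher with shNizp1#2 rose as well, from 17 in the blocked edgeR fit to 243 with only the 2 groups. With limma-voom they numbered 21. Between the shRNAs, higher members numbered 3 with no filter and 4 with only the 2 groups, and lower ones 1 with only the 2 groups. There all tested genes called rose from 214 higher and 70 lower to 711 higher and 439 lower with only the 2 groups. Without replicate 3 of every group, 0 members were called against the control shRNA or the empty vector, with log2 fold changes of 0.72 for Egln3, -0.76 for Hk2, 0.74 for Slc2a3 and 1.15 for Ankrd37.

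In number 3, leaving out a library gave 29 to 30 lower and 1 to 3 higher members, and in number 2 against 1 it gave 14 to 20 lower and 3 to 8 higher. Direction turned only in fits without the block that left out 1 library, in uncalled values. There Ndrg1 ranged from -0.15 to 0.78 with shNizp1#1 and from -0.19 to 0.70 with shNizp1#2, and Ankrd37 from -0.57 to 3.14 with shNizp1#2. Between the shRNAs Ankrd37 ranged from -1.05 to 2.5 and Vegfa from -0.013 to 0.59. Of the named members' alternatives, 465 kept direction and side of the threshold, 40 lost a call, 15 gained one and 7 turned. DESeq2 gave no adjusted p for Ankrd37 with shNizp1#2 under the block. The cause of these changes was not tested. Depth limits Ankrd37, Eno2, Egln3 and Hk3 in number 3, where libraries held as few as 1, 7, 12 and 6 counts. In the related lists it limits Loxl2, Rora, Arnt2 and Epas1, with as few as 0, 0, 0 and 1 counts.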
